A study of Mus musculus with 12 samples.

Results

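The genes described here are 40 genes of the G2 phase and of mitosis, listed by symbol and read from the array annotation with the brightest probe set per symbol. Of the 40 listed genes, 39 matched 1 probe set each among the 22180 genes of the array that carry a single symbol, and Ccnb1 is not analysed here. Sgol1 was matched under its current symbol Sgo1. A gene was bright enough to test when 3 or more of the 12 arrays showed it above their median, and 37 of the 39 matched genes were, all but Nek2 and Kif4.

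RNA was measured in skin-derived precursors (SKPs), cells of the dermis that form floating spheres in culture and can give rise to dermal cell types. The mice were 9 months old, with the strain labelled as CD57/Bl6, and each of the 4 groups had 3 arrays, labelled as biological replicates and described for the series as independent isolates. The groups were SKPs from wounded skin treated with trimebutine maleate, a drug of gut motility that acts on opioid receptors (wound trimebutine), from wounded skin treated with alprostadil, which is prostaglandin E1 (wound alprostadil), from wounded skin treated with vehicle (wound vehicle), and from uninjured skin treated with vehicle (uninjured vehicle). In every group, secondary spheres were grown from cells plated at 50000 per ml in medium containing 40 ng/ml of FGF2, 20 ng/ml of EGF and a 2% supply of B27, so all cells had been cultured with growth factors before RNA was taken. The sources used here give no drug dose, time of treatment or skin site.

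Mitosis genes are transcribed late in the cell cycle and are low in cells that are not dividing, so their RNA is widely used as a measure of dividing cells in tissue and culture. Where cells rest, the DREAM complex holds many of them silent through its MuvB core, which binds a short element known as the cell cycle genes homology region (CHR). In G2 the same core binds B-MYB and FOXM1, and NF-Y bound at CCAAT boxes adds to the activation of the same promoters.

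The promoters of 5 members are shown because those elements can be read in them. The windows run 5′ to 3′ along the gene from 250 bases before to 50 bases after the annotated start, from RefSeq on build GRCm38.p6, and capitals mark CHR letters (TTTGAA or TTCGAA) and CCAAT letters on either strand. Cdk1 encodes the kinase that drives entry into mitosis and lies at chr10:69352863-69353162 on the minus strand, Ccnb2 encodes a B-type cyclin that activates it and lies at chr9:70421505-70421804 on the minus strand, and Plk1 encodes Polo-like kinase 1 and lies at chr7:122159185-122159484 on the plus strand. Cdc20 encodes the activator of the anaphase-promoting complex and lies at chr4:118437294-118437593 on the minus strand, and Birc5 encodes survivin, a chromosomal passenger protein, and lies at chr11:117848987-117849286 on the plus strand.
Cdk1: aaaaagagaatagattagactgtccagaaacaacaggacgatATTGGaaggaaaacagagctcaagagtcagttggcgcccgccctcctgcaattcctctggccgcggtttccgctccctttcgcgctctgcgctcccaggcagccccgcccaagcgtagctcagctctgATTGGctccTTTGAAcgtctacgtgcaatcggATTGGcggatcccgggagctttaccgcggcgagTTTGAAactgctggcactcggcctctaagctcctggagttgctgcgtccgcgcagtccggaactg
Ccnb2: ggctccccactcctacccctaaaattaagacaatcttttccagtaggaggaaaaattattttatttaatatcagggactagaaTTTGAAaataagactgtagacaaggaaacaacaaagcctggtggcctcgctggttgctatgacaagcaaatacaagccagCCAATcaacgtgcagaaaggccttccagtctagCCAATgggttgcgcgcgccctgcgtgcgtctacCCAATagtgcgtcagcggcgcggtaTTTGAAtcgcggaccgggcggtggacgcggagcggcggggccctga
Plk1: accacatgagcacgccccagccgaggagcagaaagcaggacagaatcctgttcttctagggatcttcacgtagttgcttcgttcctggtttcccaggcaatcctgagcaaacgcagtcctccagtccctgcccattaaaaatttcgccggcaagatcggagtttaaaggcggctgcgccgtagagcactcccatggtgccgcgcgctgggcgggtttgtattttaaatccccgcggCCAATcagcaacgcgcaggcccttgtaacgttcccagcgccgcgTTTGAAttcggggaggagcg
Cdc20: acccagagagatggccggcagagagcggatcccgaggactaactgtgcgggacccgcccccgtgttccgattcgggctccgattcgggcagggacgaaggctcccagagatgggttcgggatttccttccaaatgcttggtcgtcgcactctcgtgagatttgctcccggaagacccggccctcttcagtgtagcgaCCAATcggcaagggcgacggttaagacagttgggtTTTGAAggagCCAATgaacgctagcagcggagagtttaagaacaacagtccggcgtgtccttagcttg
Birc5: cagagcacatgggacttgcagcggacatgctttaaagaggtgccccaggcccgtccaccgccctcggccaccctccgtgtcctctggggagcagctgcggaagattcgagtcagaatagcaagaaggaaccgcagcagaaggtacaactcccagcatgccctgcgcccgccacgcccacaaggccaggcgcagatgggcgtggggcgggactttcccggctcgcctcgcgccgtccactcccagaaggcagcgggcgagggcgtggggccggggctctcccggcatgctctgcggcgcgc

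The Cdk1 window held CHR letters that begin at positions -71 and -15 from the start, each with CCAAT letters upstream, at -80 and -48. In the Cdc20 window the CHR letters began at -18 between CCAAT letters at -53 and -8. The Ccnb2 window held CHR letters at -167 and 5 with 3 CCAAT matches between them, and the Plk1 window held 1 of each, at 31 and -14. The Birc5 window held neither motif, which says only that these letters are not in those 300 bases.

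Over the family, 34 windows of 32 genes were read. Windows for Incenp, Ccna2, Foxm1, Dlgap5, Kif20a, Tpx2 and Aurkb were not used here. CHR letters were present in 27 of the 34 windows (79.4%), against 19.2% of all 32851 windows of the same length, and CCAAT was present in 26 (76.5%), against 37.4% of all windows. Both together were found in 24 windows (70.6%), against 7.52% of all. The E2F letters TTGGCGC or TTCGCGC, which may overlap a CCAAT match on the other strand, stood in 5 windows (14.7%), against 3.89% of all, and the forkhead letters TAAACA in 4 (11.8%), against 13.4% of all. A match of letters is a description of the sequence and does not show that a factor binds there.

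The deposited values are log2 expression after RMA, so a difference of 1 is a doubling. The 39 genes varied as a block from array to array, and the arrays of 1 group lay far apart. On wound trimebutine replicates 1, 2 and 3, 39, 27 and 30 of the 39 genes lay above their own mean over the 12 arrays. On wound alprostadil replicates 1, 2 and 3 the counts were 39, 0 and 37. On wound vehicle they were 0, 0 and 39, and on uninjured vehicle 39, 37 and 0. Over all tested genes, between 45.4% and 55.3% lay above their own mean on any array.

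The mean of the 39 genes after centring each on its 12-array mean was 0.64, 0.08 and 0.13 in wound trimebutine, 0.98, -0.90 and 0.13 in wound alprostadil, -0.86, -1.11 and 0.44 in wound vehicle, and 0.73, 0.20 and -0.47 in uninjured vehicle. By group this gave 0.28 ± 0.31 in wound trimebutine, 0.07 ± 0.94 in wound alprostadil, -0.51 ± 0.83 in wound vehicle and 0.15 ± 0.60 in uninjured vehicle (SD, n = 3 each). All 4 groups overlapped, and the distance between arrays inside wound alprostadil (1.87) and inside wound vehicle (1.55) was larger than the distance between any 2 group means. Wound alprostadil replicate 1 was the highest of the 12 arrays for 33 of the 39 genes, and wound vehicle replicate 2 was the lowest for 31. Each array measures a bulk sample, so fewer dividing cells and less of these transcripts per cell cannot be told apart.

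**Figure D1:**
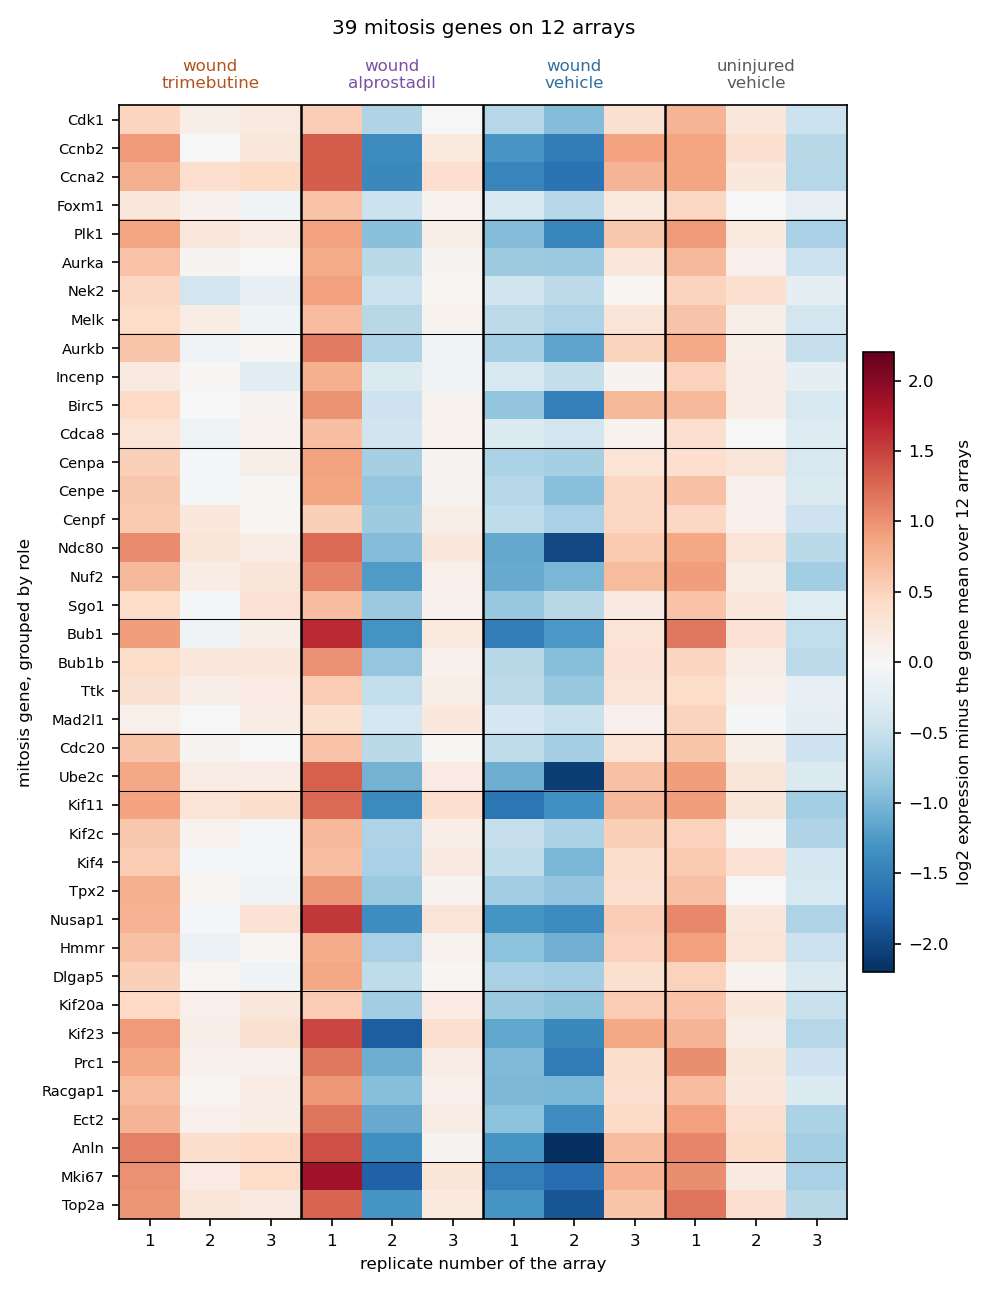
Log2 expression minus the gene's mean over 12 arrays (colour) for the 39 mitosis genes, down the page by role, on the 12 arrays, with 3 replicates in each of the 4 groups from wound trimebutine on the left to uninjured vehicle on the right. Many columns share a colour, but wound trimebutine replicates 2 and 3 are mixed, with 27 and 30 of the 39 genes above the mean. Wound vehicle replicates 1 and 2, wound alprostadil replicate 2 and uninjured vehicle replicate 3 lie below the mean for all 39 genes. Replicate 1 of wound trimebutine, wound alprostadil and uninjured vehicle and replicate 3 of wound vehicle lie above it for all 39.

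The same block was seen when arrays were ordered inside their groups. Replicate 1 was the highest of its group for 38 genes in wound trimebutine, for 39 in wound alprostadil and for 39 in uninjured vehicle, and replicate 3 was the highest for 39 in wound vehicle. The lowest was replicate 2 for 39 genes in wound alprostadil, replicate 2 for 35 in wound vehicle and replicate 3 for 39 in uninjured vehicle. In wound trimebutine the lowest array was less uniform, replicate 2 for 25 genes and replicate 3 for 14. The median expression over all probe sets of an array lay between 6.57 and 6.74. The 3 arrays of lowest median were replicate 1 of wound alprostadil (6.57), of uninjured vehicle (6.61) and of wound trimebutine (6.62). These arrays are also the highest of their groups for these genes. In wound vehicle, replicate 3 was the highest for these genes, and its median (6.735) lay between those of replicates 1 (6.728) and 2 (6.743). The part of the array medians in the results was not tested beyond the values given with each comparison.

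Arrays of wound trimebutine lay closest together. The SD over its 3 arrays was the smallest of the 4 groups for 38 of the 39 genes, with Nek2 as the exception. Over all 13153 tested genes it was the smallest for 35.4%. The median SD of the 39 genes was 0.34 in wound trimebutine, 0.86 in wound alprostadil, 0.79 in wound vehicle and 0.59 in uninjured vehicle, and over all tested genes these medians were 0.12, 0.18, 0.15 and 0.14. The difference in spread was not tested.

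Ki-67 (Mki67), the antigen that coats mitotic chromosomes and marks cycling cells in histology, measured 9.80, 8.97 and 9.19 in wound trimebutine, 10.64, 7.01 and 9.05 in wound alprostadil, 7.28, 7.11 and 9.55 in wound vehicle and 9.81, 8.99 and 8.07 in uninjured vehicle. Topoisomerase II alpha (Top2a), which untangles sister chromatids, measured 9.05, 8.34 and 8.29 in wound trimebutine, 9.36, 6.78 and 8.30 in wound alprostadil, 6.79, 6.21 and 8.69 in wound vehicle and 9.26, 8.46 and 7.47 in uninjured vehicle. Both were low on 2 wound vehicle arrays and on 1 wound alprostadil array, and the third wound vehicle array lay among the trimebutine and uninjured values. The distance from the lowest to the highest array was 3.62 for Mki67, which is 12.3-fold, and 3.15 for Top2a, or 8.90-fold.

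Cdk1, whose promoter with paired CHR and CCAAT letters is printed above, measured 10.32, 9.99 and 10.04 in wound trimebutine, 10.40, 9.19 and 9.86 in wound alprostadil, 9.23, 8.90 and 10.19 in wound vehicle and 10.61, 10.10 and 9.38 in uninjured vehicle. Foxm1, a forkhead factor that activates G2 genes, measured 7.75, 7.61 and 7.43 in wound trimebutine, 8.14, 7.04 and 7.59 in wound alprostadil, 7.19, 6.89 and 7.72 in wound vehicle and 7.97, 7.50 and 7.34 in uninjured vehicle. Cdk1 spanned 1.71 over the arrays and Foxm1 1.25, both with the same 4 lowest arrays as Mki67 and with all 4 groups overlapping. The cyclins Ccnb2 and Ccna2 spanned 2.87 and 2.95.

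Among the kinases, Plk1, which acts at centrosomes, kinetochores and the midzone, measured 9.07, 8.45 and 8.37 in wound trimebutine, 9.10, 7.30 and 8.35 in wound alprostadil, 7.26, 6.77 and 8.80 in wound vehicle and 9.14, 8.42 and 7.50 in uninjured vehicle. Aurora B (Aurkb), the kinase of the chromosomal passenger complex, measured 8.90, 8.22 and 8.33 in wound trimebutine, 9.44, 7.62 and 8.22 in wound alprostadil, 7.54, 7.13 and 8.79 in wound vehicle and 9.13, 8.44 and 7.79 in uninjured vehicle. Survivin (Birc5), which brings that complex to centromeres and has no CHR or CCAAT letters in its printed window, measured 6.91, 6.46 and 6.53 in wound trimebutine, 7.45, 6.02 and 6.55 in wound alprostadil, 5.61, 4.96 and 7.20 in wound vehicle and 7.18, 6.64 and 6.12 in uninjured vehicle. In all 3 genes the lowest values were wound vehicle replicates 2 and 1, and replicate 3 of that group lay above replicates 2 and 3 of wound trimebutine. Birc5 lay above the array median on 4 arrays, and its low values are near the dim end of the array.

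Aurka, the centrosomal Aurora kinase, spanned 1.63 over the 12 arrays and Melk, a kinase of dividing and progenitor cells, 1.36. The centrosomal kinase Nek2, which was not tested, averaged 6.002 ± 0.44 in wound trimebutine, 6.20 ± 0.69 in wound alprostadil, 5.72 ± 0.32 in wound vehicle and 6.26 ± 0.37 in uninjured vehicle (SD, n = 3 each). Incenp and Cdca8, the scaffold and borealin subunits of the passenger complex, spanned 1.30 and 1.09, which were among the narrower ranges of the family.

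At the kinetochore, Ndc80 (the microtubule-binding subunit also called Hec1) measured 8.15, 7.37 and 7.26 in wound trimebutine, 8.35, 6.16 and 7.34 in wound alprostadil, 5.99, 5.12 and 7.68 in wound vehicle and 7.95, 7.39 and 6.52 in uninjured vehicle. Shugoshin 1 (Sgo1), which protects cohesion at centromeres, measured 7.15, 6.72 and 7.06 in wound trimebutine, 7.42, 5.94 and 6.84 in wound alprostadil, 5.92, 6.14 and 6.94 in wound vehicle and 7.37, 6.98 and 6.48 in uninjured vehicle. Cenpf, a large kinetochore protein, measured 7.60, 7.27 and 7.08 in wound trimebutine, 7.55, 6.25 and 7.16 in wound alprostadil, 6.47, 6.32 and 7.49 in wound vehicle and 7.48, 7.14 and 6.57 in uninjured vehicle. Ndc80 spread over 3.23, Sgo1 over 1.50 and Cenpf over 1.35, and in each gene the wound vehicle arrays ran from at or near the lowest value of the 12 to the upper part of the range. Nuf2, the partner of Ndc80, spanned 2.33, the centromeric histone Cenpa 1.62 and the kinetochore motor Cenpe 1.78.

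In the spindle checkpoint, which delays anaphase until chromosomes are attached, the kinase Bub1 measured 8.24, 7.24 and 7.47 in wound trimebutine, 8.97, 6.005 and 7.54 in wound alprostadil, 5.79, 6.06 and 7.63 in wound vehicle and 8.48, 7.64 and 6.77 in uninjured vehicle. The kinase Ttk, also called MPS1, measured 6.69, 6.51 and 6.54 in wound trimebutine, 6.93, 5.83 and 6.48 in wound alprostadil, 5.79, 5.52 and 6.64 in wound vehicle and 6.75, 6.47 and 6.17 in uninjured vehicle. Bub1 spanned 3.18, or 9.04-fold, and Ttk spanned 1.41, again with wound alprostadil replicate 1 highest. Ttk lay above the array median on 3 arrays, the fewest with which a gene was tested. Bub1b (BUBR1) averaged 7.72 ± 0.09 in wound trimebutine, against 7.004 ± 0.66 in wound vehicle, and Mad2l1 (MAD2) had the narrowest range of the 37 tested genes, 0.98.

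For the exit from mitosis, Cdc20 measured 8.64, 8.09 and 8.03 in wound trimebutine, 8.66, 7.43 and 8.06 in wound alprostadil, 7.48, 7.30 and 8.33 in wound vehicle and 8.64, 8.16 and 7.57 in uninjured vehicle. Ube2c, the ubiquitin-conjugating enzyme of the anaphase-promoting complex, measured 9.37, 8.67 and 8.68 in wound trimebutine, 9.83, 7.49 and 8.70 in wound alprostadil, 7.45, 6.43 and 9.17 in wound vehicle and 9.44, 8.78 and 8.21 in uninjured vehicle. Ube2c spanned 3.40, or 10.6-fold, and wound vehicle replicate 2 (6.43) lay 1 unit or more below every other array. Cdc20 spanned 1.37.

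Of the spindle motors, Kif11 (Eg5), which pushes spindle poles apart, measured 8.53, 7.96 and 8.03 in wound trimebutine, 8.89, 6.25 and 8.01 in wound alprostadil, 6.06, 6.31 and 8.37 in wound vehicle and 8.57, 7.91 and 6.90 in uninjured vehicle. Kif2c (MCAK), which shortens microtubules at kinetochores, measured 7.83, 7.31 and 7.19 in wound trimebutine, 7.94, 6.55 and 7.37 in wound alprostadil, 6.72, 6.53 and 7.75 in wound vehicle and 7.74, 7.25 and 6.57 in uninjured vehicle. Kif11 spread over 2.83 and Kif2c over 1.41, with the high and low arrays of the other genes. The spindle assembly genes Tpx2, Nusap1, Hmmr and Dlgap5 spanned 1.84, 2.93, 1.97 and 1.61. The chromokinesin Kif4, which was not tested, averaged 5.89 ± 0.34 in wound trimebutine, 5.76 ± 0.70 in wound alprostadil, 5.32 ± 0.71 in wound vehicle and 5.90 ± 0.49 in uninjured vehicle (SD, n = 3 each).

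Of the central spindle and cytokinesis genes, anillin (Anln), the scaffold of the contractile ring, measured 8.99, 8.28 and 8.32 in wound trimebutine, 9.31, 6.54 and 7.95 in wound alprostadil, 6.59, 5.69 and 8.59 in wound vehicle and 8.96, 8.30 and 7.13 in uninjured vehicle. Kif23 (MKLP1), a motor of the central spindle, measured 8.46, 7.65 and 7.86 in wound trimebutine, 8.996, 5.70 and 7.87 in wound alprostadil, 6.38, 6.10 and 8.38 in wound vehicle and 8.27, 7.69 and 6.90 in uninjured vehicle. Prc1, which bundles midzone microtubules, measured 8.61, 7.86 and 7.85 in wound trimebutine, 8.93, 6.68 and 7.93 in wound alprostadil, 6.80, 6.22 and 8.15 in wound vehicle and 8.79, 8.03 and 7.32 in uninjured vehicle. Anln spanned 3.62, or 12.3-fold, Kif23 3.30 and Prc1 2.71, so this role held some of the widest ranges of the family. Kif20a, a midzone motor, spanned 1.51, Racgap1, the partner of Kif23, 1.96, and Ect2, the exchange factor that switches on RhoA for furrowing, 2.54.

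**Figure D2:**
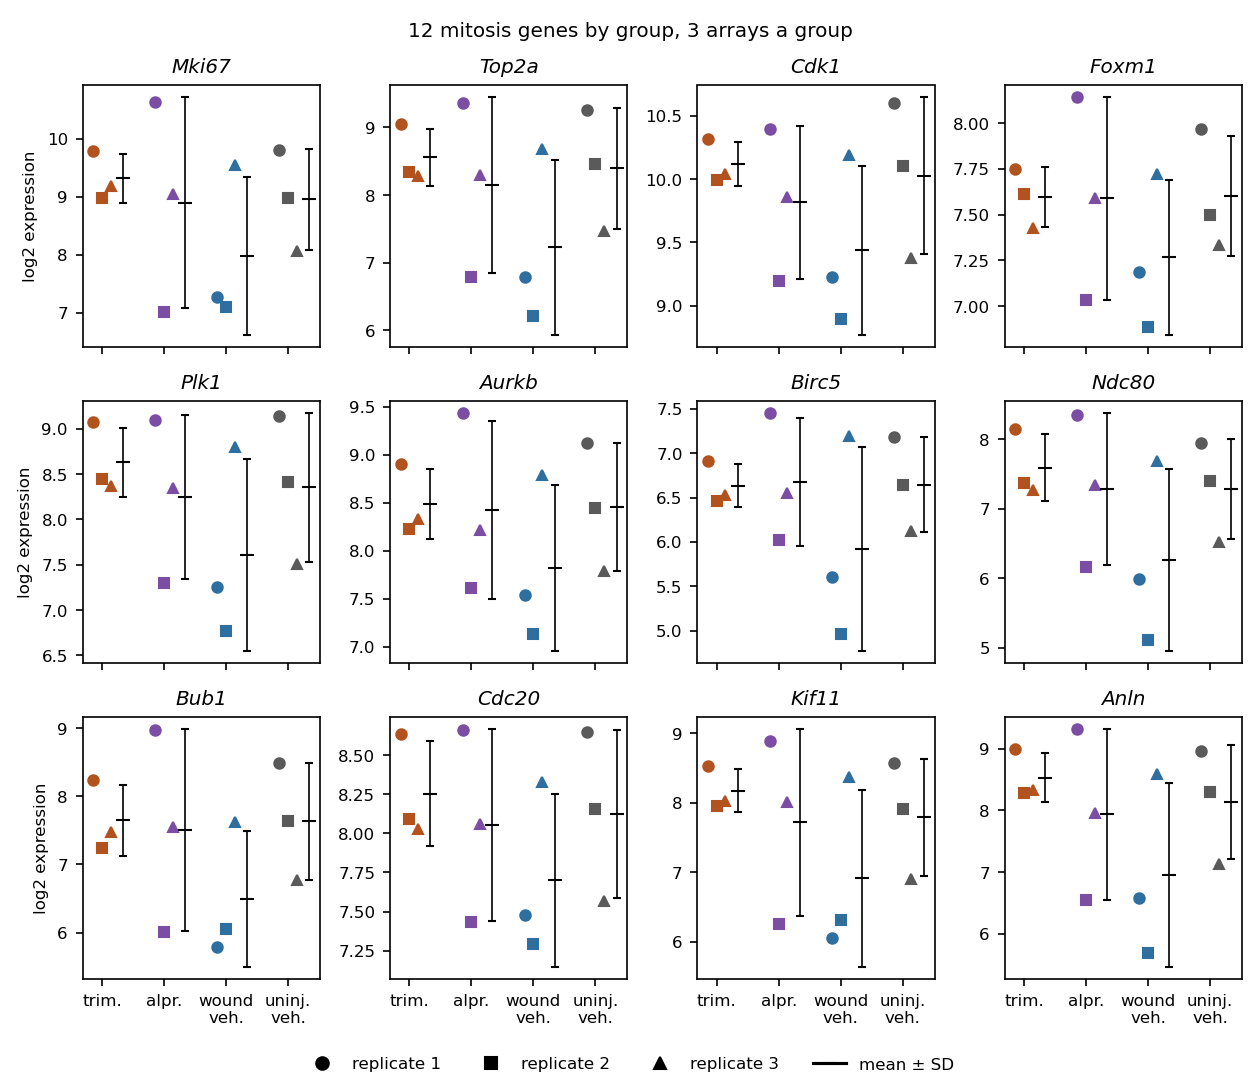
Log2 expression (vertical axes, which differ between panels) of 12 mitosis genes in wound trimebutine (trim.), wound alprostadil (alpr.), wound vehicle and uninjured vehicle, with a symbol for each of the 3 replicates and the mean ± SD beside them. In every panel the 4 groups overlap, and wound vehicle replicate 3 lies well above wound vehicle replicates 1 and 2.

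The first comparison asks whether SKPs from wounded skin differ in these genes from SKPs of uninjured skin, both with vehicle. None of the 37 tested genes passed an adjusted p of 0.05 in limma, although the difference of means lay below 0 for all 37. The median difference was -0.61, against 0.01 over all 13153 tested genes, of which 48.6% lay below 0. Over all genes 6 passed the threshold (0.0456%), and 13.0% had an unadjusted p under 0.05, a mark that 0 of the 37 reached. Wound vehicle and uninjured vehicle overlapped for all 37, where 18.0% of all genes did not overlap. Under array weights, which count arrays far from their group for less, 32 of the 37 passed, and so did 38.0% of all genes.

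By role, the median difference was -1.07 for Mki67 and Top2a, -0.78 for the 6 cytokinesis genes and -0.78 for Cdc20 and Ube2c. It was -0.72 for the cyclin, Cdk1 and Foxm1 group, -0.63 for the 6 tested spindle motor and assembly genes and -0.57 for the 3 tested mitotic kinases. The 6 centromere and kinetochore genes had a median of -0.55, the 4 chromosomal passenger genes -0.53 and the 4 checkpoint genes -0.46. The standard error (SE) of the difference of a single gene had a median of 0.50 over the family.

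The smallest adjusted p among the members was 0.520 in limma, shared by Ube2c (-1.13 ± 0.71), Sgo1 (-0.61 ± 0.38) and Prc1 (-0.99 ± 0.62), with the SE after each difference. Anln had the lowest difference of the 37 (-1.18 ± 0.82), with a 95% confidence interval of -2.997 to 0.64, and Kif2c the one nearest 0 (-0.19 ± 0.43, interval -1.14 to 0.76). Mki67 averaged 7.98 ± 1.36 in wound vehicle and 8.96 ± 0.87 in uninjured vehicle (SD, n = 3 each), a difference of -0.98 ± 0.89. Top2a differed by -1.17 ± 0.75, Cdk1 by -0.59 ± 0.40, Bub1 by -1.14 ± 0.74, Ndc80 by -1.02 ± 0.69, Plk1 by -0.75 ± 0.60 and Foxm1 by -0.34 ± 0.29. The median of the 37 genes depended on single arrays: it was -1.12 without wound vehicle replicate 3, where 0.0380% of all genes passed, -0.31 when replicate 2 of that group was left out, -0.40 when its replicate 1 was, -0.34 without uninjured vehicle replicate 1 and -0.97 without uninjured vehicle replicate 3. With the array median as a covariate, chosen after seeing the data, it was -0.28, and in each of these 6 settings 0 of the 37 genes passed.

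Other mitosis and DNA replication genes lay mostly on the same side with medians smaller in size, and none of the listed cell cycle genes passed. Of 59 other mitosis genes, 54 lay below 0 (median -0.33), with Ckap2, a spindle protein, at -1.22 ± 0.46 (adjusted p = 0.319, limma) and Gtse1 at -0.59 ± 0.24. Of 40 genes of DNA replication and the G1/S transition, 38 lay below 0 (median -0.24), with Tipin, a replication fork protein, at -0.56 ± 0.15 and cyclin E1 (Ccne1) at -0.73 ± 0.25. Of the 22 CDK inhibitors and p53 targets, 12 lay below 0 and 10 above (median -0.01). Their leading genes went opposite ways: the p53 target Btg2 differed by -1.46 ± 0.31 (adjusted p = 0.132, limma) and the CDK inhibitor p57 (Cdkn1c) by 1.10 ± 0.24.

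Btg2 measured 8.66, 8.70 and 8.28 in wound trimebutine, 9.31, 8.09 and 9.13 in wound alprostadil, 8.92, 8.39 and 8.27 in wound vehicle and 10.26, 9.63 and 10.07 in uninjured vehicle. All 3 uninjured vehicle arrays lay above all wound vehicle arrays, unlike any of the 37 tested members of the family. Cdkn1c measured 9.09, 8.93 and 8.83 in wound trimebutine, 8.33, 8.50 and 8.41 in wound alprostadil, 8.64, 9.46 and 8.36 in wound vehicle and 7.44, 7.91 and 7.80 in uninjured vehicle, and its uninjured vehicle arrays lay below all wound vehicle arrays. Cdkn1a (p21), Ccnd1 (cyclin D1), Pcna and Mybl2 (B-MYB) differed by -0.13 ± 0.08, 0.20 ± 0.30, -0.08 ± 0.16 and -0.05 ± 0.17, none past the threshold.

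The lists of regulators that sit above the family had medians smaller in size than those of the other mitosis and DNA replication genes. The 19 tested genes of DREAM, E2F and MuvB had a median of -0.05, with Tfdp1, the E2F partner, at -0.31 ± 0.09 and E2f3 at -0.38 ± 0.12. The 13 genes that switch CDK1 on and off, some of which are also counted among the other mitosis genes, had a median of -0.02, led by Ensa (-0.23 ± 0.10) and the inhibitory kinase Wee1 (-0.34 ± 0.19). The 14 subunits and adaptors of the anaphase-promoting complex had a median of -0.01, led by Cdc26 (-0.20 ± 0.12) and Cdc27 (0.11 ± 0.07), and the 7 G1 cyclins and growth drivers one of 0.07, led by Cdk2 (-0.14 ± 0.09) and Ccnd3 (-0.40 ± 0.25).

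Markers of cell types were read on the same arrays. The summed level of 15 SKP and dermal markers was 15.65 to 16.13 on the log2 scale in wound vehicle and 15.98 to 16.20 in uninjured vehicle, and 11 of the 14 tested lay below 0, led by Bmp4 (-0.83 ± 0.28) and Twist2 (-0.44 ± 0.15). The platelet-derived growth factor receptor Pdgfra measured 12.31, 12.53 and 12.67 in wound trimebutine and 11.19, 11.43 and 12.52 in wound alprostadil. It measured 11.51, 11.49 and 12.32 in wound vehicle and 12.38, 12.55 and 11.92 in uninjured vehicle. Its low arrays in wound vehicle and in uninjured vehicle were those low for mitosis genes. In wound alprostadil and wound trimebutine its lowest array was replicate 1, where the mitosis genes were highest in the group. Sox2, a marker of some SKPs, lay between 4.69 and 5.61 and above the array median on 0 arrays. The summed level of 8 endothelial markers was 9.69 to 10.72 in wound vehicle and 9.37 to 9.52 in uninjured vehicle, with Pecam1 at 5.78 to 6.14 on all arrays. The 3 of 8 bright enough to test were Tek (0.60 ± 0.18), VE-cadherin (Cdh5, 2.01 ± 0.72) and Vwf (0.15 ± 0.53). Cdh5 was 9.98 on wound vehicle replicates 1 and 2 but 7.37 on replicate 3, within the 6.41 to 7.52 of uninjured vehicle. Keratinocyte, muscle and Schwann or melanocyte markers, with 4 of 9, 4 of 6 and 6 of 8 bright enough to test, summed to 9.46 to 9.95, 9.36 to 10.15 and 10.45 to 10.80 over the 12 arrays. Macrophage markers summed to 11.39 to 12.33 in wound vehicle and 10.87 to 11.91 in uninjured vehicle, and 9 of 11 lay above 0 (median 0.70), led by Cd14 (-0.98 ± 0.69) and Cd68 (1.02 ± 0.90). The part of these cell types in the mitosis values was not tested.

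**Figure D3:**
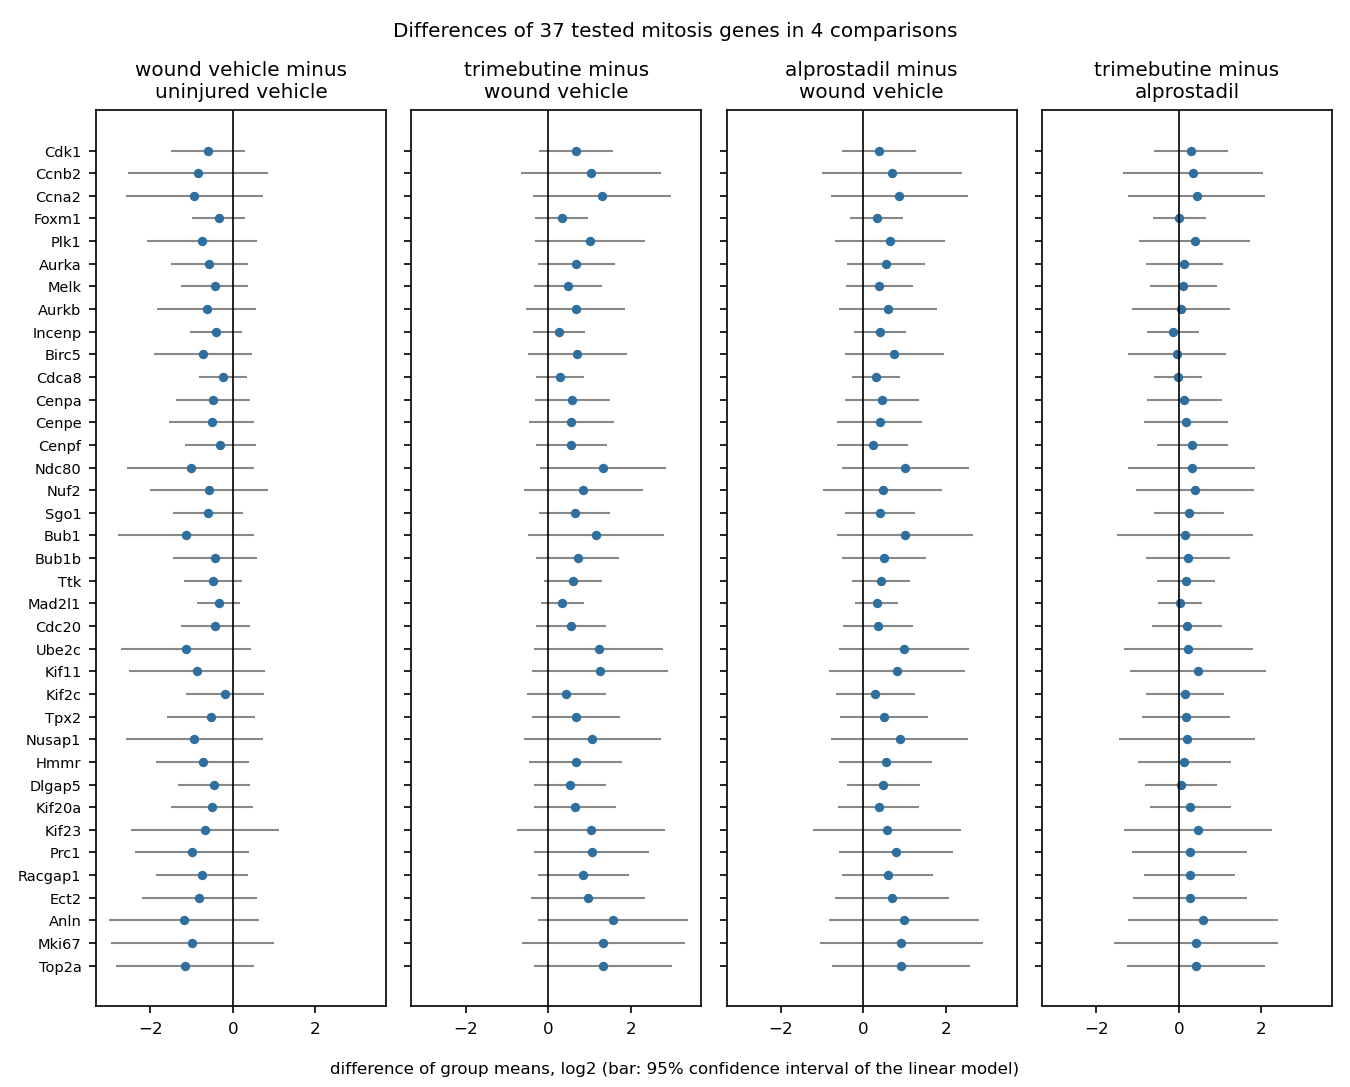
Difference of group means (points, log2) with the 95% confidence interval of the linear model (bars) for the 37 tested mitosis genes, listed by role, in the 4 comparisons. Every interval crosses 0, while the points lie below 0 for all 37 genes in wound vehicle minus uninjured vehicle and above 0 for all 37 in each drug minus wound vehicle.

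The second comparison asks whether trimebutine changes SKPs of wounded skin, against vehicle. No mitosis gene passed, and no gene of the array did (0%), while 9.43% of all genes and 0 of the 37 had an unadjusted p under 0.05. The difference lay above 0 for all 37, with a median of 0.68, and 50.0% of all tested genes lay above 0. Wound trimebutine and wound vehicle overlapped for all 37, where 15.8% of all genes did not. Under array weights 26 of the 37 passed, against 30.7% of all genes. The same 3 wound vehicle arrays serve the comparisons with uninjured skin and with both drugs, so the opposite sides of those differences are not independent.

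The smallest adjusted p was 0.545 in limma, for Ndc80 (1.33 ± 0.69), Anln (1.58 ± 0.82) and Ttk (0.60 ± 0.32). Anln averaged 8.53 ± 0.40 in wound trimebutine and 6.95 ± 1.49 in wound vehicle (SD, n = 3 each), which is 2.98-fold, with a 95% confidence interval of -0.24 to 3.39 on the log2 scale. Mki67 differed by 1.34 ± 0.89, Top2a by 1.33 ± 0.75, Kif11 by 1.26 ± 0.74, Ube2c by 1.22 ± 0.71 and Plk1 by 1.02 ± 0.60, and Incenp had the smallest difference (0.26 ± 0.28). By role the medians were 1.34 for Mki67 and Top2a, 1.00 for cytokinesis genes, 0.89 for Cdc20 and Ube2c and 0.86 for the cyclin, Cdk1 and Foxm1 group. They were 0.68 for kinases, 0.67 for spindle genes, 0.66 for checkpoint genes, 0.61 for kinetochore genes and 0.48 for the passenger complex.

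Without wound vehicle replicate 3 the median of the 37 was 1.15, with a smallest adjusted p of 0.123 among them and 11 genes of the array called (0.0836%). Without wound vehicle replicate 2 it was 0.45, and with the array median as a covariate 0.36. Of the other mitosis genes, 56 of 59 lay above 0 (median 0.34), with the condensin gene Smc4 at 0.68 ± 0.24 and securin (Pttg1) at -0.30 ± 0.11, and of the G1/S genes 35 of 40 did (median 0.25), with Tipin at 0.43 ± 0.15 and the polymerase epsilon subunit Pole2 at 0.53 ± 0.21. None passed, and the adjusted p of these 4 was 0.528 to 0.528 in limma.

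Smc4 measured 9.72, 9.71 and 9.69 in wound trimebutine, 9.70, 8.70 and 9.75 in wound alprostadil, 9.06, 8.85 and 9.18 in wound vehicle and 9.11, 9.41 and 9.08 in uninjured vehicle. All 3 wound trimebutine arrays lay above all wound vehicle arrays, which no member of the family showed. CDK inhibitors and p53 targets had a median of -0.06, with 9 of 22 above 0, led by Sesn1 (0.60 ± 0.20) and Mdm2 (-0.38 ± 0.13). The medians were 0.01 for the DREAM, E2F and MuvB genes, led by Tfdp1 (0.26 ± 0.09) and E2f8 (0.73 ± 0.44), 0.06 for the CDK1 switch, led by the checkpoint kinase Chek2 (-0.34 ± 0.16) and Wee1 (-0.32 ± 0.19), and 0.09 for the anaphase-promoting complex, led by Cdc26 (0.28 ± 0.12) and Cdc16 (0.34 ± 0.17). G1 cyclins and growth drivers had a median of -0.01, led by Cdk2 (0.14 ± 0.09) and Ccnd3 (0.40 ± 0.25). Cdkn1a, Ccnd1, Pcna and Mybl2 differed by -0.10 ± 0.08, -0.04 ± 0.30, 0.03 ± 0.16 and -0.003 ± 0.17. Dermal markers lay above 0 for 10 of 14 (median 0.11), with Vcan at 0.72 ± 0.24 and Pdgfrb at 0.72 ± 0.26. Macrophage markers lay below 0 for 10 of 11 (median -0.80), led by Lyz2 (-2.27 ± 1.25) and Fcer1g (-1.25 ± 1.14), with summed levels of 10.48 to 11.40 in wound trimebutine and 11.39 to 12.33 in wound vehicle. The part of either cell type in the mitosis values was not tested.

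The third comparison asks the same of alprostadil. No member and no gene of the array passed (0%), and 2.75% of all genes and 0 of the 37 had an unadjusted p under 0.05. The difference was above 0 for all 37, with a median of 0.54, against 0.03 over all tested genes, of which 59.4% lay above 0. Wound alprostadil and wound vehicle overlapped for all 37, where 5.90% of all genes did not.

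The members of smallest p were Ndc80 (1.02 ± 0.69), Birc5 (0.75 ± 0.54) and Ube2c (0.99 ± 0.71), each with an adjusted p of 0.998 in limma. Mki67 averaged 8.90 ± 1.82 in wound alprostadil and 7.98 ± 1.36 in wound vehicle (SD, n = 3 each), a difference of 0.92 ± 0.89 with a 95% confidence interval of -1.06 to 2.90. Top2a differed by 0.92 ± 0.75, Bub1 by 1.01 ± 0.74, Kif11 by 0.81 ± 0.74, Cdk1 by 0.38 ± 0.40, Foxm1 by 0.32 ± 0.29 and Cenpf, the smallest, by 0.23 ± 0.39. By role the medians ran from 0.42 for kinetochore genes to 0.92 for Mki67 and Top2a. When wound alprostadil replicate 1 was left out the median of the 37 was 0.10, with 32 of 37 above 0. It was 0.96 with replicate 2 of that group left out instead, 1.04 without wound vehicle replicate 3, 0.27 without replicate 2 of that group, 0.36 without its replicate 1 and 0.09 with the array median as a covariate.

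The array on which this median rests also carried the macrophage markers. Their summed level was 15.45 on wound alprostadil replicate 1 and 10.54 and 11.08 on replicates 2 and 3, against 11.39 to 12.33 in wound vehicle, 10.48 to 11.40 in wound trimebutine and 10.87 to 11.91 in uninjured vehicle. All 11 tested macrophage markers of the 16 matched lay above their own mean there, and Adgre1, a macrophage surface receptor too dim to test, was 11.12 on that array and 5.10 to 7.12 elsewhere. Macrophage markers lay above 0 for 10 of 11 against wound vehicle (median 0.73), led by Cd14 (1.10 ± 0.69) and Csf1r (1.03 ± 0.72). SKP and dermal markers summed to 15.83 on replicates 1 and 2 and 16.21 on replicate 3, and the mitosis genes were highest on replicate 1 and lowest on replicate 2 of that group. In wound vehicle the dermal sums were 15.75, 15.65 and 16.13, highest on replicate 3, where the mitosis genes were highest too. Trimebutine replicate 1 and uninjured vehicle replicate 1, where the mitosis genes were highest in their groups, also had the highest macrophage sums of their groups. These sums were 11.40, 10.53 and 10.48 in wound trimebutine and 11.91, 11.02 and 10.87 in uninjured vehicle. In wound vehicle the highest macrophage sum, 12.33, was on replicate 2, where the mitosis genes were lowest. The part of macrophages and dermal cells in the mitosis values was not tested.

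Of the other mitosis genes, 57 of 59 lay above 0 (median 0.29), led by the histone H2az1 (0.47 ± 0.20) and the phosphatase Cdc25c (0.48 ± 0.26), and of the G1/S genes 38 of 40 (median 0.22), led by Rfc3 (0.36 ± 0.14) and Slbp (0.21 ± 0.11). CDK inhibitors and p53 targets had 10 of 22 above 0 (median -0.06), led by Cdkn1c (-0.41 ± 0.24) and Cdkn2b (-0.24 ± 0.15). Of the regulators, 16 of 19 DREAM, E2F and MuvB genes lay above 0 (median 0.10), led by the MuvB subunit Lin9 (0.41 ± 0.16) and E2f3 (0.24 ± 0.12). So did 12 of 13 genes of the CDK1 switch (median 0.08), and 59.4% of all tested genes. After centring, the DREAM, E2F and MuvB genes averaged 0.25, -0.04 and -0.03 on wound alprostadil replicates 1, 2 and 3. In wound vehicle they averaged -0.09, -0.10 and -0.05. The CDK1 switch genes averaged 0.26, -0.05 and -0.01 in wound alprostadil and -0.04, -0.12 and -0.05 in wound vehicle. None of the genes of these lists passed in limma. Cdkn1a, Ccnd1, Pcna and Mybl2 differed by 0.04 ± 0.08, -0.04 ± 0.30, 0.07 ± 0.16 and -0.07 ± 0.17.

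Between the drugs, the difference of wound trimebutine minus wound alprostadil lay above 0 for 34 of the 37 genes, with a median of 0.22, against -0.01 over all tested genes, of which 46.2% lay above 0. No member and no gene of the array passed in limma (0%), and 4.42% of all genes and 0 of the 37 had an unadjusted p under 0.05. The 2 drug groups overlapped for all 37 genes, where 11.2% of all genes did not. The smallest p values belonged to Cenpf (0.33 ± 0.39, adjusted p = 0.808), Cdk1 (0.30 ± 0.40) and Anln (0.60 ± 0.82). The 3 genes below 0 were Incenp (-0.13 ± 0.28), Birc5 (-0.04 ± 0.54) and Cdca8 (-0.01 ± 0.26), all subunits of the chromosomal passenger complex, and the complex's kinase Aurkb was at 0.06 ± 0.54. The direction rested on single arrays: the median was -0.27, with 0 of 37 above 0, when replicate 2 of wound alprostadil was left out, 0.61 without its replicate 1 and 0.02 without trimebutine replicate 1. For Mki67 the interval of the difference was -1.56 to 2.40, so these arrays leave room for a difference between the drugs in either direction.

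Other cell cycle lists stood near 0 between the drugs. The other mitosis genes had a median of 0.05, led by Pttg1 (-0.26 ± 0.11) and Smc4 (0.32 ± 0.24), and the G1/S genes one of 0.03, led by the helicase subunits Mcm2 (-0.29 ± 0.12) and Mcm7 (-0.25 ± 0.15). CDK inhibitors and p53 targets had a median of -0.02, led by Cdkn1c (0.54 ± 0.24) and Mdm2 (-0.29 ± 0.13), and none of these genes passed. Macrophage markers lay below 0 for all 11 tested (median -1.49). Their summed level was 15.45 on wound alprostadil replicate 1. On replicates 2 and 3 of that group it was 10.54 and 11.08, within the 10.48 to 11.40 of wound trimebutine. The part of macrophages in the mitosis values was not tested here either.

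Across all 4 groups together, limma's F test called 0 of the 37 genes and 2 of all genes (0.0152%), with a smallest adjusted p of 0.732 among the members, and 0 of the 37, against 7.89% of all genes, had an unadjusted p under 0.05. Under array weights it called 18 of the 37 and 40.3% of all genes. The share of a gene's sum of squares over the 12 arrays that lay between the 4 group means had a median of 20.3% in the 37 genes, against 30.1% over all tested genes. The members ranged from 10.2% for Kif2c and 14.3% for Kif23 to 29.4% for both Ttk and Ndc80, so none of the 37 reached the median of all genes. The spread inside groups was wide in absolute terms too: the pooled within-group SD had a median of 0.69 (0.32 to 1.23), against 0.17 over all tested genes, and the distance over the 12 arrays one of 1.96 (0.98 to 3.62), against 0.58. For 10 of the 37 genes the within-group SD was larger than the distance between the highest and lowest group means, a share close to the 24.8% of all tested genes.

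**Figure D4:**
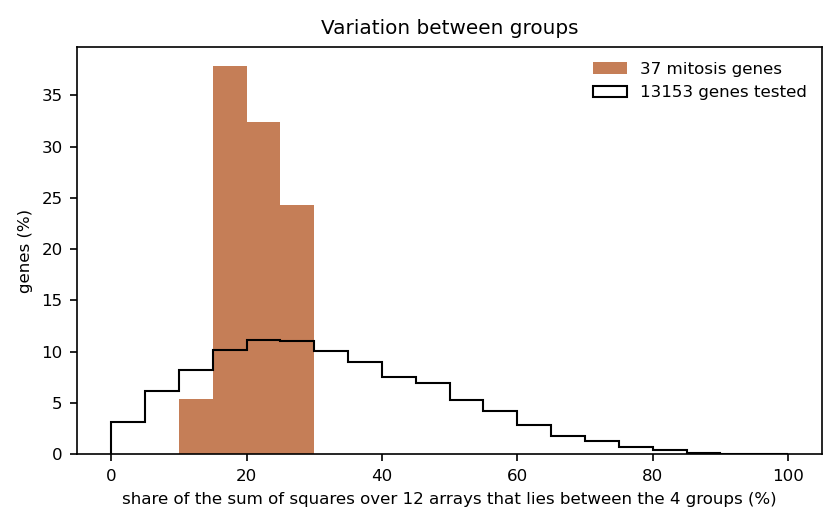
Share of the sum of squares over 12 arrays that lies between the 4 groups (horizontal axis, %) for the 37 tested mitosis genes (filled bars) and all 13153 tested genes (line), each as a percentage of its genes (vertical axis). The mitosis genes lie between 10.2% and 29.4%, and the median of all genes is 30.1%.

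The same median share was 18.9% for the other mitosis genes, whose single genes ran from 3.37% to 58.4%. It was 22.5% for the G1/S genes, 22.7% for the DREAM, E2F and MuvB genes and 37.3% for the CDK inhibitors and p53 targets. On single arrays the mean of the centred G1/S genes was 0.06, 0.07 and 0.03 in wound trimebutine, 0.31, -0.24 and 0.01 in wound alprostadil, -0.28, -0.41 and 0.12 in wound vehicle and 0.44, 0.12 and -0.23 in uninjured vehicle. The 4 arrays where the G1/S genes averaged lowest were those of the mitosis genes, while their highest was uninjured vehicle replicate 1, against wound alprostadil replicate 1 for the mitosis genes. On wound trimebutine replicate 1 the G1/S genes stood near their mean, with 25 of 40 above it, where all 37 mitosis genes lay above theirs. The means of the CDK inhibitors and p53 targets stayed between -0.09 and 0.08 on all 12 arrays, and those of the anaphase-promoting complex between -0.13 and 0.11. A list mean can stay flat while its genes move in opposite directions. Single CDK inhibitors and p53 targets spanned 0.32 to 2.17 over the 12 arrays. Their median span was 0.88, against 0.58 over all tested genes and 0.46 for the anaphase-promoting complex.

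**Figure D5:**
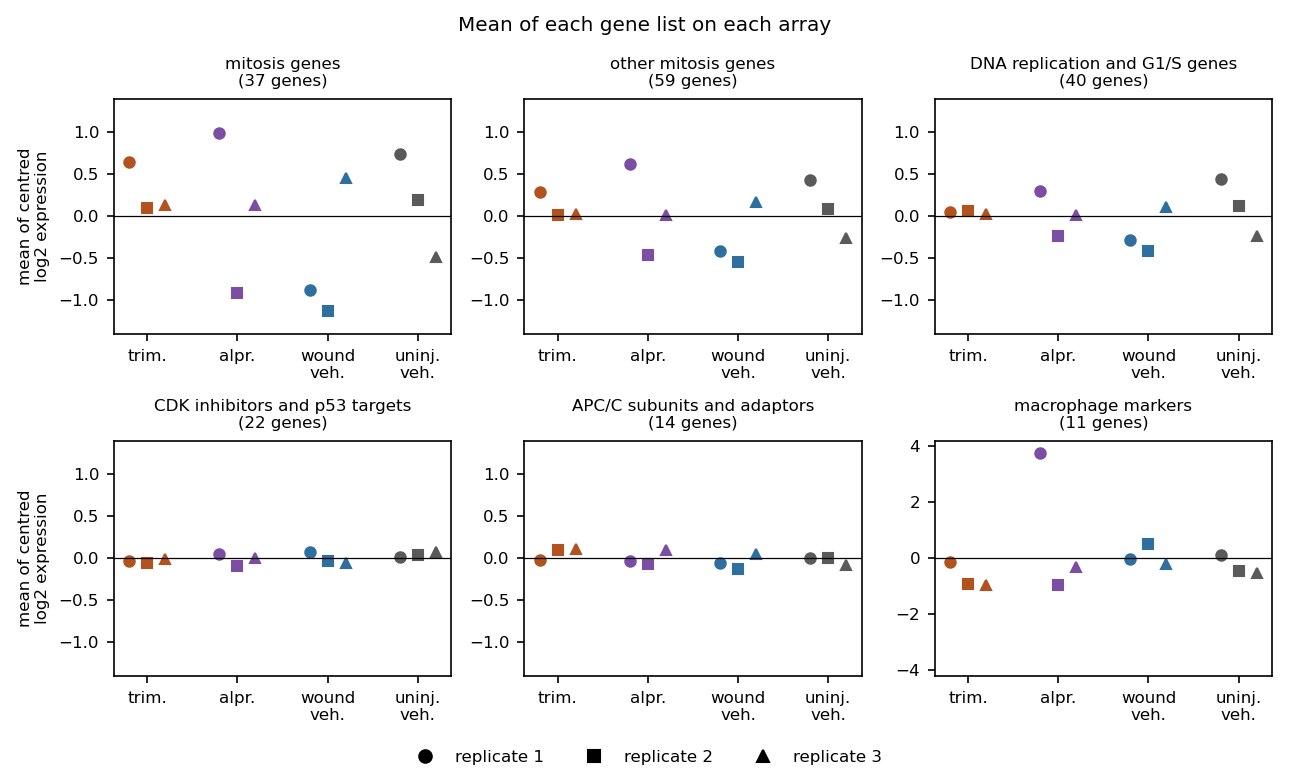
Mean of the centred log2 expression of the tested genes of 6 lists (vertical axes, wider in the macrophage panel) on each array of wound trimebutine (trim.), wound alprostadil (alpr.), wound vehicle and uninjured vehicle, with a symbol per replicate. Arrays of 1 group are far apart in the mitosis panel (-1.13 to 0.99 over all arrays) and less so for G1/S genes. They are close for the mean of the CDK inhibitors, whose single genes had a median span of 0.88. Wound alprostadil replicate 1 stands alone for macrophage markers (3.76).

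The genes outside the family whose profile over the 12 arrays was most like the mean of the centred members were Kif15, a spindle motor (Pearson r = 0.989), Knl1, a kinetochore scaffold (0.988), Prr11 (0.985), the condensin subunit Ncaph (0.984) and E2f7, an E2F repressor (0.983). Next came Arhgap11a (0.981), the kinase Mastl (0.981), Kif18b (0.980), the heme oxygenase Hmox2 (0.976) and Ticrr, a replication initiation factor (0.973). Of these 10, 6 were in the list of other mitosis genes alone or with another list, and Hmox2 spanned 0.53 over the arrays, against 2.32 for Kif15. These correlations describe the 12 arrays, on which any overall shift of an array is shared by all genes, and carry no test.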

How the data were processed

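RNA of 12 SKP cultures was hybridised to Affymetrix Mouse Gene 2.0 ST arrays after cDNA synthesis from 400 ng of total RNA, per the labels' protocols. The deposited table holds log2 values for each probe set that the authors obtained with RMA in oligo, per the submitters' processing notes, whose versions and settings the sources used here do not give. These values were used with no further normalization, and array medians lay between 6.57 and 6.74. Precision is limited by the number of arrays.

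Of 41345 probe sets, 23521 had 1 gene symbol in the platform annotation, 1814 several and 16010 none, and only the first kind was used. The brightest probe set of a symbol was kept. The 13153 genes above the array median on at least 3 arrays entered 1 linear model of the 4 groups in limma 3.58.1 (R 4.3.3), with no covariate. P-values were two-sided and adjusted by Benjamini-Hochberg over all tested genes (threshold 0.05). The fit was tried on simulated data in which genes varied independently, so shifts shared by many genes of an array were not covered. Members and lists were chosen with earlier results of these data known.

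Values on every array were given for 12 members of fixed choice that matched, for the 3 members of smallest p in each comparison and for the 2 highest and 2 lowest shares between groups. From other lists the 2 genes of smallest p in a comparison were named, but not for every list in every comparison. Cdkn1a, Ccnd1, Pcna and Mybl2 were named as well. Pdgfra, Adgre1, Sox2, Pecam1, Vwf and leading markers were named as checks of cell type. Btg2, Cdkn1c, Smc4, Cdh5 and Myc were given by array after their values were seen. The lists by which markers were read were those of SKP and dermal, macrophage, keratinocyte, endothelial, Schwann and melanocyte, and muscle cells. Summed levels add the values of a list on the linear scale before log2. Promoters came from RefSeq (GRCm38.p6). Replicate numbers were not taken to pair arrays, as the sources used here do not state that equal numbers share an isolate or day. Of 18 pairs of arrays with the same number in different groups, 11 had a correlation of deviations over 0.1 (-0.644 to 0.618). The 36 pairs with different numbers ran from -0.57 to 0.583. These values do not settle whether arrays are paired. Alternatives were array weights, a replicate block, each array left out in turn, median centring, cyclic loess, a robust variance trend, the mean of probe sets, no filter or a stricter filter for dim genes, a looser threshold and fits to only the groups compared. The array median as a covariate and the omission of the 3 arrays of lowest median were added after seeing the data. Figures used Python 3.11.15 and matplotlib 3.10.9.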

Additional observations from a re-analysis of the deposited data

How the results depend on the processing

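With 3 arrays a group and no batch given, these results cannot separate culture differences from treatment, and small differences are within the spread. Without a replicate block 0 of the 37 mitosis genes were called in every comparison, and with the replicate block also 0, with medians of -0.61, 0.68, 0.54 and 0.22 for wound vehicle against uninjured vehicle, trimebutine against wound vehicle, alprostadil against wound vehicle and trimebutine against alprostadil. Members were called under array weights only: 32 of 37 for wound vehicle against uninjured vehicle, where 4997 genes of the array were called (38.0%), 26 for trimebutine against wound vehicle, where 4034 were (30.7%), and 18 by the F test, where 5302 were (40.3%); under array weights none was called in the other 2 comparisons, and the cause was not tested.

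All genes called for wound vehicle against uninjured vehicle numbered 6, and 2 with the replicate block, 4 without a filter, with cyclic loess or with another variance model, 0 with a stricter filter or only the groups compared, 1 with median centring, 21 at a threshold of 0.1, 0 with the 3 arrays of lowest median omitted, 2 with the array median as a covariate, and 0 to 30 when arrays were left out in turn. By the F test, 2 genes were called, against 0 with the replicate block, 0 with a stricter filter, 1 with cyclic loess, 1 with median centring, 3 at a threshold of 0.1, 0 without the 3 arrays of lowest median, 0 with the covariate and 0 to 6 when arrays were left out. Leaving out arrays gave 0 to 11 genes for trimebutine against wound vehicle, 0 to 1 for alprostadil against wound vehicle and 0 to 1 for trimebutine against alprostadil, and 0 members throughout.

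The medians of the mitosis genes when arrays were left out in turn ran from -1.12 to -0.31, 0.45 to 1.15, 0.10 to 1.04 and -0.27 to 0.61 in the 4 comparisons. Without the 3 arrays of lowest median they were -0.34, 0.57, 0.10 and 0.49, and with the array median as a covariate -0.28, 0.36, 0.09 and 0.27. The median share between groups was 20.2% to 21.2% under other filters and scalings.

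Of 1374 alternative differences of single named members, 1327 kept their direction and side of the threshold. Another 30 passed it, all under array weights, and 17 changed direction. Many of these settings cannot change a difference, only its p-value. They are the replicate block, the variance trend, the filters, fits to only the groups compared, the mean of probe sets and the omission of an array of another group. The count is therefore no measure of how stable the directions are. For wound vehicle minus uninjured vehicle, Kif2c ran from -0.56 to 0.089 over the fits with 1 array left out, and was 0.048 without wound vehicle replicate 2, 0.089 without the 3 arrays of lowest median and 0.15 with the covariate. For alprostadil minus wound vehicle, Cenpf ran from -0.055 to 0.59, Kif2c from -0.037 to 0.67 and Kif23 from -0.17 to 1.48 with 1 array left out, each lowest without wound alprostadil replicate 1. Omitting the 3 arrays gave the same lowest values, and with the covariate Cdc20 was -0.021, Cenpf -0.089, Kif2c -0.10 and Kif23 -0.093. For trimebutine minus alprostadil, Cenpf ran from -0.039 to 0.61, Cdk1 from -0.012 to 0.59 and Anln from -0.10 to 1.28, each lowest without wound alprostadil replicate 2.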

Other observations

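Some genes ran opposite to the mitosis genes over the 12 arrays. The profile most opposed to the mean of the centred members was that of Ylpm1 (Pearson r = -0.985), followed by AW549877 (-0.972), the long noncoding RNA Firre (-0.965), the kinase Ikbkb (-0.961) and Zkscan2 (-0.958). The next were Cryzl1 (-0.952), the GABA-B receptor subunit Gabbr1 (-0.941), St7l (-0.938), the laminin chain Lamb1 (-0.937) and Mdm4, an inhibitor of p53 (-0.935). Firre spanned 1.84 over the arrays and Ikbkb 0.33. These genes were named by the same measure as those most alike, after seeing the data, and the correlations describe 12 arrays with no test.

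Cyclin D1 (Ccnd1), which acts before the G1/S transition, measured 11.22, 11.55 and 11.06 in wound trimebutine, 11.51, 11.62 and 10.70 in wound alprostadil, 11.39, 10.89 and 11.67 in wound vehicle and 11.56, 11.14 and 10.67 in uninjured vehicle. Its low arrays were wound alprostadil replicate 3, wound vehicle replicate 2 and uninjured vehicle replicate 3, a set that only in part matched the low arrays of the mitosis genes. Myc measured 10.14, 9.36 and 9.21 in wound trimebutine and 10.52, 10.32 and 9.37 in wound alprostadil. It measured 10.13, 10.10 and 9.46 in wound vehicle and 9.11, 8.96 and 10.34 in uninjured vehicle. Myc was above 10 on wound vehicle replicates 1 and 2, wound alprostadil replicate 2 and uninjured vehicle replicate 3, the lowest arrays of the mitosis genes. It was also above 10 on trimebutine replicate 1 and alprostadil replicate 1, where the mitosis genes were high.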
